A study of Bos taurus with 12 samples.

Results

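Endometrial biopsies of grazing dairy cows were compared between the very high and the high class of progesterone, 6 of the 12 samples of the study and 3 in each class. Per the labels, the classes are set by the concentration of progesterone in the estrous cycle at day 4, and the labels do not add on which day the biopsies were taken. The label of the very high class gives a progesterone concentration above 20 ng/ml and that of the high class one above 2.5 ng/ml, so the classes are bounded from below and the concentration of each cow is not given. No treatment, age or breed is stated, and the titles of the samples carry abbreviations (SO for very high, HPP4 for high) that are not spelled out. The labels do not say that the 3 samples of a class came from 3 cows, so p-values refer only to the variation among these samples, which may be technical. The comparison asks which endometrial genes differ in level above a concentration that is already high, and which do not.

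Progesterone is made by the corpus luteum after ovulation and acts on the uterus mainly through its nuclear receptor PGR, a ligand-activated transcription factor. In cattle its rise in early diestrus prepares the endometrium for the embryo: the glands begin to secrete nutrients, and continued exposure lowers the receptors for progesterone and estrogen in the epithelium. Estradiol, which dominates at estrus, drives proliferation and raises PGR, ESR1 and the oxytocin receptor. A biopsy contains epithelium, glands, stroma, vessels, leukocytes and varying amounts of muscle.

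The 6 libraries held 6952815 to 7487867 counts in the high class and 7202893 to 8379489 in the very high class. Spearman correlations between libraries ran from 0.955 to 0.970 within the high class, from 0.958 to 0.974 within the very high class and from 0.957 to 0.974 between the classes, so libraries of different classes were as alike as those of 1 class. The first principal component (30.1% of the variance) cut across the classes. It set high replicate 1 and very high replicates 1 and 2 at -27.3 to -19.6 and the other 3 libraries at 19.6 to 25.8. The smooth muscle marker list, taken as the mean log2 CPM (counts scaled to library size in the usual way) of its 13 tested genes, was 8.82 to 9.07 in the former and 9.47 to 10.1 in the latter. Its class means were 9.48 ± 0.62 for high and 9.28 ± 0.59 for very high (SD, n = 3 each). Epithelial markers were present in every library, with a list level of 6.15 to 6.84, and no gene of either list was at 0 throughout. High replicate 1 stood apart in immediate early genes, which are induced within minutes of a stimulus: FOS was at 833 CPM there and at 6.94 to 29.5 CPM in the other 5 libraries.

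No gene passed the test. Of 10534 tested genes, edgeR's quasi-likelihood test called 0 (0%) at an adjusted p of 0.05, and the smallest adjusted p was 0.999674. At an unadjusted p under 0.05 there were 367 genes (3.48%), fewer than the 5% that this threshold lets through when no gene differs. Of these, 181 (1.72%) were at a higher and 186 (1.77%) at a lower level in the very high class. The values of all 3 very high libraries lay above all 3 high libraries for 344 genes (3.27%) and below them for 415 (3.94%). limma-voom called 0 genes with 297 at an unadjusted p under 0.05, while DESeq2 called 5 genes with 391 at that p. The 5 were SERPINA1 (adjusted p = 0.00982), SLC2A5, PENK and ETV5 (adjusted p = 0.0229 each) and NUDT5 (adjusted p = 0.0253). The unadjusted count depended on single libraries: it was 236 when very high replicate 2 was left out, 600 for very high replicate 3 and 610 for high replicate 1.

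A p that misses a threshold does not show that a gene did not differ, so each gene was also given the 95% interval of its fold change. For 7640 of the 10534 genes (72.5%) the whole interval lay within 2-fold in either direction, so a larger difference between the class means lay outside it. For 4318 genes (41.0%) it lay within 1.5-fold. The median interval reached 0.50 log2 units, or 1.42-fold, to either side of its estimate. The estimates themselves were centred on 0, with a median of -0.01 and quartiles of -0.14 and 0.14. They were above 0 for 5045 genes and below 0 for 5489, and 282 genes had an estimate beyond 2-fold (134 higher, 148 lower). The share within 2-fold followed the level of the gene. With the genes split by mean level into 4 bins of equal size, it was 30.6% in the lowest bin (0.986 to 13.0 CPM), 80.0% in the next and 89.8% and 89.7% in the upper bins. The median standard error was 0.40 log2 units in the lowest bin and 0.16 in the highest.

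**Figure D1:**
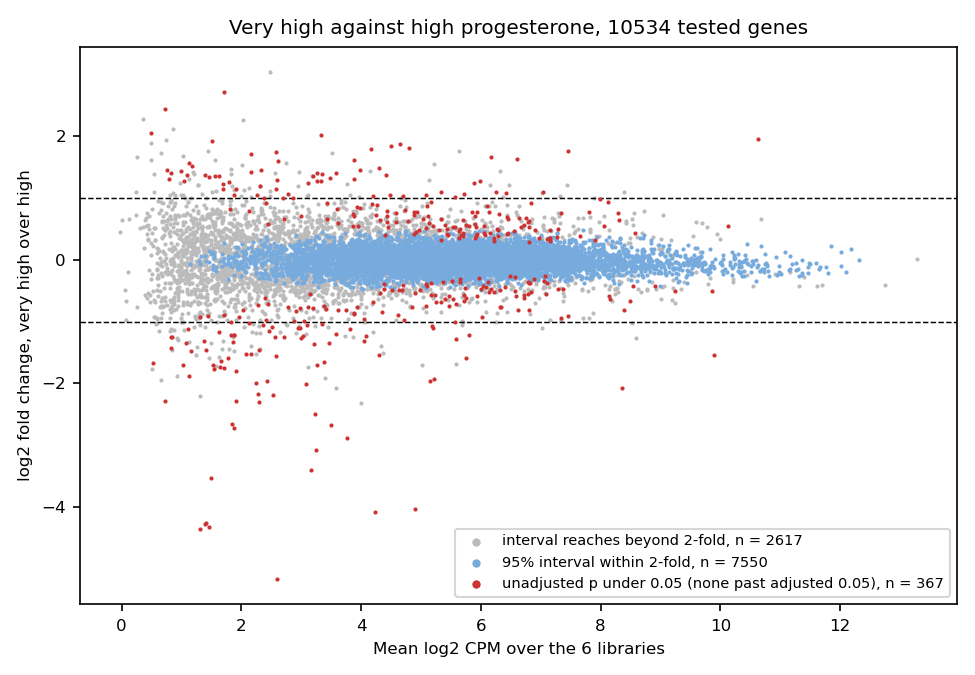
Each point is 1 tested gene, by its mean log2 CPM over the 6 libraries and its log2 fold change of very high over high progesterone. Dashed lines mark 2-fold, red points are the 367 genes at an unadjusted p under 0.05 (90 of which also have their interval within 2-fold), and none passed the adjusted threshold.

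The size of the step can be set beside the step below it in a fit over all 12 libraries, in which the spread is shared by 4 classes. The label of the low class gives progesterone below 1.4 mg/dl, a unit unlike the ng/ml of the others, and that of the very low class below 0.25 ng/ml. There, 99 of 10959 genes (0.903%) were at an unadjusted p under 0.05 between very high and high, and 1221 (11.1%) between high and low. The intervals lay within 2-fold for 5772 genes (52.7%) in the former and for 4806 (43.9%) in the latter. At an adjusted p of 0.05 edgeR called 0 genes in both. The steps share the 3 high libraries, and the difference between them was not tested. They also differed in muscle markers: the estimates of the 13 smooth muscle genes were 2.50 to 8.33 for high over low and -0.64 to 0.33 for very high over high. The part of these markers in the step sizes was not tested. The biological coefficient of variation, the spread between samples beyond counting error, was 26.5% over the 6 libraries and 44.0% over all 12.

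Among the lists, oxidative phosphorylation had the highest share of bounded genes. All 28 tested genes of oxidative phosphorylation, which encode subunits of the mitochondrial respiratory chain and the ATP synthase, had intervals within 2-fold, against 72.5% of all genes, and their estimates ran from -0.21 to 0.22 with a median of 0.00. COX4I1, a subunit of cytochrome c oxidase, was at 497, 444 and 526 CPM in the high and at 617, 579 and 511 CPM in the very high libraries. NDUFA4, another respiratory chain subunit, was at 217, 211 and 231 CPM against 231, 197 and 217 CPM. The libraries of the classes overlapped for both genes. In the annotation COX4I1 overlaps the tested gene EMC8 and may share reads with it. The count of 28 was also reached in every alternative fit, each library left out included.

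The unfolded protein response and secretory machinery, which folds proteins in the endoplasmic reticulum before secretion, had 24 of 25 genes within 2-fold and a median of -0.07. HSPA5, its main chaperone, was at 401, 409 and 581 CPM in high and 493, 427 and 386 CPM in very high libraries. XBP1, the transcription factor that enlarges the secretory apparatus, was at 362, 414 and 537 CPM against 350, 337 and 491 CPM. The exception in the list was CREB3L2, a membrane-bound transcription factor, with an estimate of -0.19 and an interval of -1.01 to 0.64. Both lists hold mostly genes at high levels, with medians of 6.90 and 6.80 log2 CPM against 5.28 for all tested genes.

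Glycolysis and hypoxia genes were within 2-fold for 22 of 24 (91.7%), and for 11 of 24 in the 12-library fit, where 52.7% of all genes were. The list's median level was 6.38 log2 CPM. In the bin that holds this level (5.24 to 6.44 log2 CPM), 89.8% of all genes were within 2-fold. In this list, lactate dehydrogenase LDHA, which converts pyruvate to lactate, was at 129, 138 and 144 CPM in high and at 87.6, 101 and 97.4 CPM in very high libraries. The classes did not overlap, and the estimate was -0.53 ± 0.12 (SE), with an unadjusted p of 0.00271, the smallest of the list. Its interval, -0.80 to -0.25, stayed within the bound. ENO1, the enolase upstream of it, was at 731, 647 and 777 CPM against 620, 428 and 628 CPM (-0.36 ± 0.19), and GAPDH was at 440, 424 and 671 CPM against 555, 419 and 436 CPM. NDRG1 and EGLN3, 2 genes induced by low oxygen, had wider intervals.

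**Figure D2:**
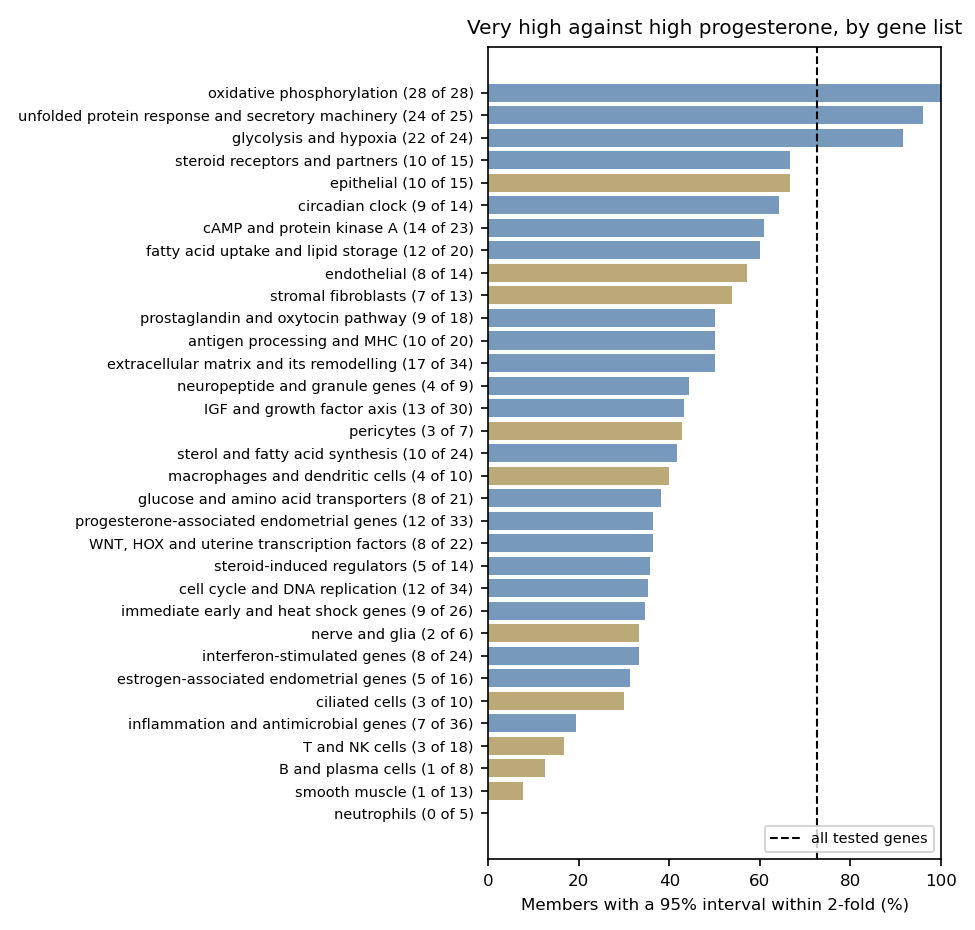
Share of each list's tested genes with a 95% interval within 2-fold between the classes (blue bars: pathways, brown bars: cell type markers; lists of 5 or more tested genes), with the number in brackets. The dashed line is the 72.5% of all tested genes, and only the oxidative phosphorylation, secretory machinery and glycolysis lists stand above it. The median level of each of these lists was above that of all tested genes.

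Among the receptors that read progesterone and the other steroids, the share bounded was below that of all genes. The list's median level was 6.13 log2 CPM. In the bin that holds this level (5.24 to 6.44 log2 CPM), 89.8% of all genes were within 2-fold. Of 15 tested steroid receptors and partners, 10 (66.7%, against 72.5%) had intervals within 2-fold, and 12 of the 15 estimates were below 0. PGR was at 27.8, 40.0 and 33.5 CPM in high and at 21.0, 26.7 and 28.7 CPM in very high libraries. The classes overlapped by 1 library, and the difference was -0.41 ± 0.20 (unadjusted p = 0.0817). ESR1, the estrogen receptor alpha, was at 62.9, 65.3 and 48.4 CPM against 22.5, 31.8 and 51.2 CPM, where very high replicate 3 lay among the high libraries. Its difference was -0.75 ± 0.30 (unadjusted p = 0.0393), from -0.51 without very high replicate 1 to -1.12 without very high replicate 3. The membrane-associated progesterone components PGRMC1 and PGRMC2 each had an estimate of 0.00 (SE 0.12 and 0.15), as did the glucocorticoid receptor NR3C1 (SE 0.17). PGRMC1 was at 254, 261 and 286 CPM against 246, 273 and 281 CPM.

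FKBP5, a chaperone partner of steroid receptors and a target of progesterone and glucocorticoids in many tissues, was at 301, 252 and 186 CPM in high and 299, 210 and 328 CPM in very high libraries. Its difference of 0.18 ± 0.23 had an interval of -0.36 to 0.72, within 2-fold. In the 12-library fit the estimate of FKBP5 for high over low was 0.59 ± 0.28 (unadjusted p = 0.0581). Of the 14 steroid-induced regulators, 0 were at an unadjusted p under 0.05, against 1.72% of all genes higher and 1.77% lower. Only 5 (35.7%, against 72.5% of all genes) were within 2-fold, so most of the list was not bounded. ZBTB16, a transcription factor induced by progesterone in stromal cells, was among the bounded ones (-0.22 ± 0.29).

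**Figure D3:**
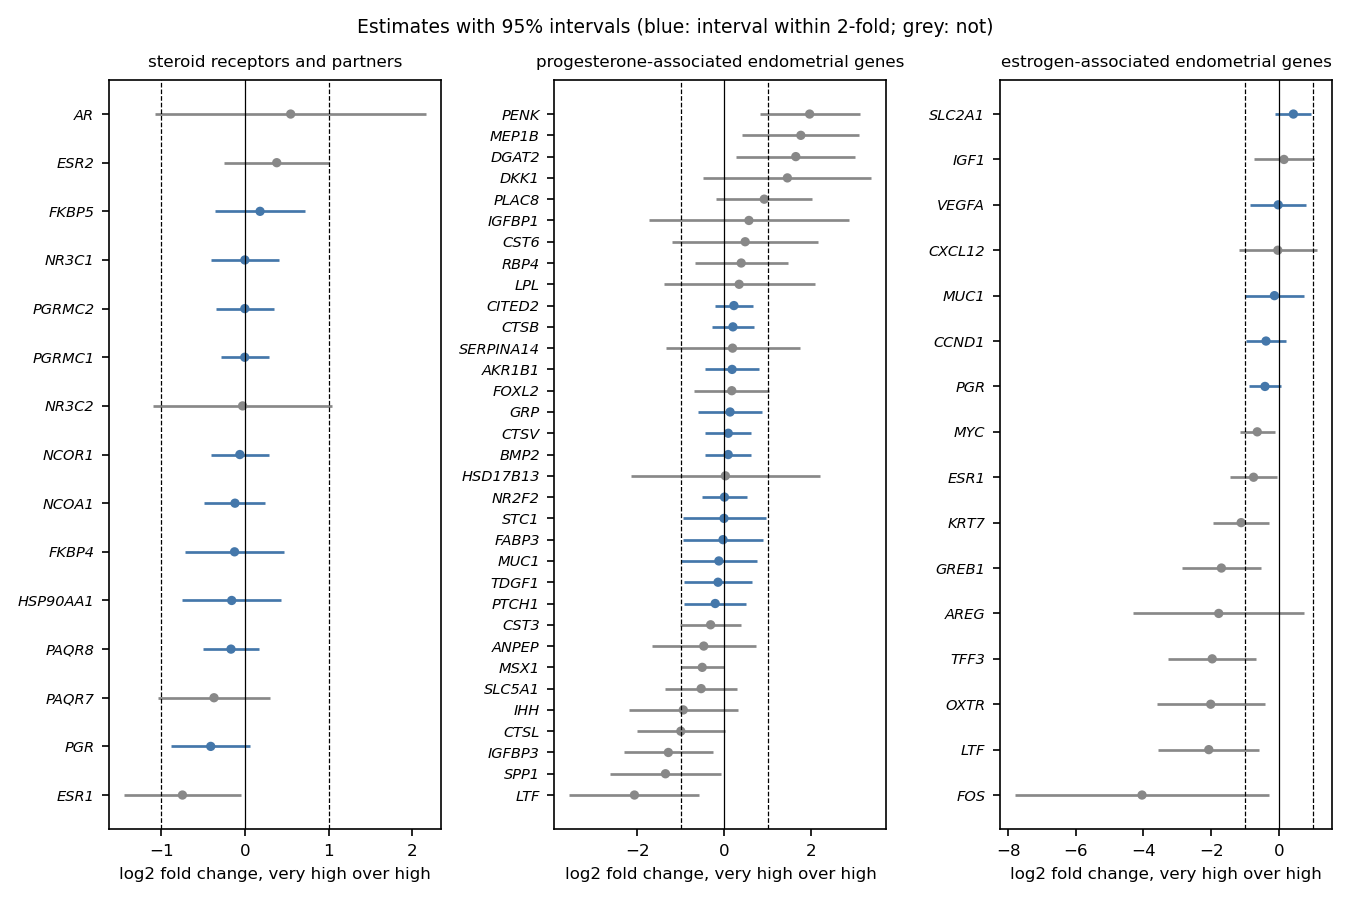
Estimates (points) and 95% intervals (lines) of the log2 fold change of very high over high progesterone for the steroid receptors, the progesterone-associated and the estrogen-associated genes. Blue intervals lie within 2-fold (dashed lines), and the estrogen-associated genes lie mainly below 0.

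Endometrial genes associated with progesterone had estimates in both directions. Of 33 tested, 3 were at an unadjusted p under 0.05 with a higher level (PENK, MEP1B and DGAT2) and 4 with a lower level (SPP1, LTF, IGFBP3 and MSX1), against 1.72% and 1.77% of all genes. Their median was 0.09 and 12 (36.4%, against 72.5% of all genes) were within 2-fold. Among them were NR2F2, a stromal nuclear receptor (0.00 ± 0.22), and GRP, a secreted gland peptide (0.13 ± 0.31). Leaving out 1 library gave 1 to 5 higher and 2 to 4 lower. The lists were assembled with results of these samples known, so a list is no independent evidence of a direction.

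PENK, the precursor of enkephalin peptides, had the largest estimate towards a higher level in the bin of genes with the highest levels. It was at 839, 839 and 931 CPM in the high libraries and at 4695, 4273 and 1177 CPM in the very high ones. The high libraries were nearly equal, all 3 very high libraries lay above them, and very high replicate 3 lay close to them. The difference was 1.96 ± 0.49 (interval 0.81 to 3.11, unadjusted p = 0.00477), 2.37 without very high replicate 3 and 1.61 with the smooth muscle level as a covariate. In the 12-library fit PENK differed by 0.10 ± 0.78 between high and low.

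Other secretory and metabolic genes had the same layout, with very high replicates 1 and 2 above and replicate 3 beside the high libraries. MEP1B, the metalloprotease subunit meprin beta, was at 127, 69.1 and 131 CPM in high and 344, 647 and 115 CPM in very high libraries (1.76 ± 0.57). DGAT2, which makes triglycerides, was at 70.2, 73.8 and 43.9 CPM against 198, 334 and 53.5 CPM (1.64 ± 0.58). IGFBP2, a binding protein for insulin-like growth factors, was at 73.1, 30.6 and 38.7 CPM against 233, 179 and 37.6 CPM (1.66 ± 0.63). SFRP1, a secreted WNT inhibitor, was at 182, 153 and 194 CPM against 370, 362 and 168 CPM (0.77 ± 0.29). The granule protein CHGA was at 18.9, 42.5 and 64.1 CPM against 107, 135 and 55.7 CPM (1.25 ± 0.47). Without very high replicate 2 the estimates were 1.08 for MEP1B and 1.02 for DGAT2.

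Very high replicate 3 had more smooth muscle signal (9.94) than very high replicates 1 and 2 (8.82 and 9.07). The level in high replicate 1 was 8.86. The part of muscle content in this layout was not tested beyond a covariate. With the smooth muscle level as a covariate the estimates were 1.46 for MEP1B, 1.18 for DGAT2, 1.11 for IGFBP2, 0.61 for SFRP1 and 1.41 for CHGA. In bulk tissue, fewer cells of a type and less RNA per cell cannot be told apart.

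Genes of prostaglandin synthesis and conversion gave 2 estimates of the same direction. AKR1C4, an aldo-keto reductase, was at 40.9, 20.8 and 12.4 CPM in high and at 48.2, 52.4 and 53.3 CPM in very high libraries, without overlap (1.05 ± 0.38). CBR1, which converts prostaglandin E2, was at 15.2, 12.2 and 16.9 CPM against 33.9, 21.3 and 18.4 CPM (0.73 ± 0.28), also without overlap. They were the 2 of 18 tested prostaglandin and oxytocin genes at an unadjusted p under 0.05 with a higher level, and 1 (OXTR) had a lower one, against 1.72% and 1.77% of all genes. AKR1B1, a prostaglandin F synthase of the bovine endometrium, was within 2-fold (0.18 ± 0.26). PTGS2, the inducible cyclooxygenase, ranged from 4.90 to 70.7 CPM within the high class alone, and its estimate of -0.06 had an interval of -1.87 to 1.74.

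The genes with the smallest unadjusted p and a higher level had smaller and more even estimates than PENK. NUDT5, a hydrolase of ADP-ribose, was at 88.1, 90.6 and 90.2 CPM in high and 142, 142 and 127 CPM in very high libraries. This was 0.61 ± 0.11 (unadjusted p = 0.000825), and the interval of 0.35 to 0.87 stayed within 2-fold. In the 12-library fit the estimate of NUDT5 for high over low was -0.91 ± 0.27, of the opposite sign. The steps share the high libraries, so a choice of genes with low values there favours an opposite sign. Of the other genes of this group, the estimate was below 0 for HIST1H2AC and HIST1H1D (-1.67 each), PNPLA4 (-1.38) and SLF1 (-0.01). It was above 0 for ETV5 (0.77), ITGA10 (0.22), FDXR (0.13) and CSNK1B (0.10).

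ETV5, a transcription factor downstream of growth factor signalling, was at 13.5, 7.76 and 7.34 CPM in high and 28.9, 21.4 and 28.5 CPM in very high libraries (1.46 ± 0.28, unadjusted p = 0.00121). FDXR, which passes electrons to the mitochondrial cytochromes P450 of steroid synthesis, was at 28.3, 28.9 and 27.5 CPM against 41.6, 44.4 and 42.2 CPM (0.60 ± 0.13). PNPLA4, a lipid hydrolase, was at 2.11, 2.72 and 2.82 CPM against 8.39, 5.98 and 6.31 CPM (1.43 ± 0.30). The classes were apart for each of these genes. The other members of this group, with estimates of 0.76 to 1.40, were SLF1, the linker and core histone genes HIST1H1D and HIST1H2AC, the casein kinase gene CSNK1B and the integrin gene ITGA10. The adjusted p of edgeR was 0.999674 or above for all of them.

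**Figure D4:**
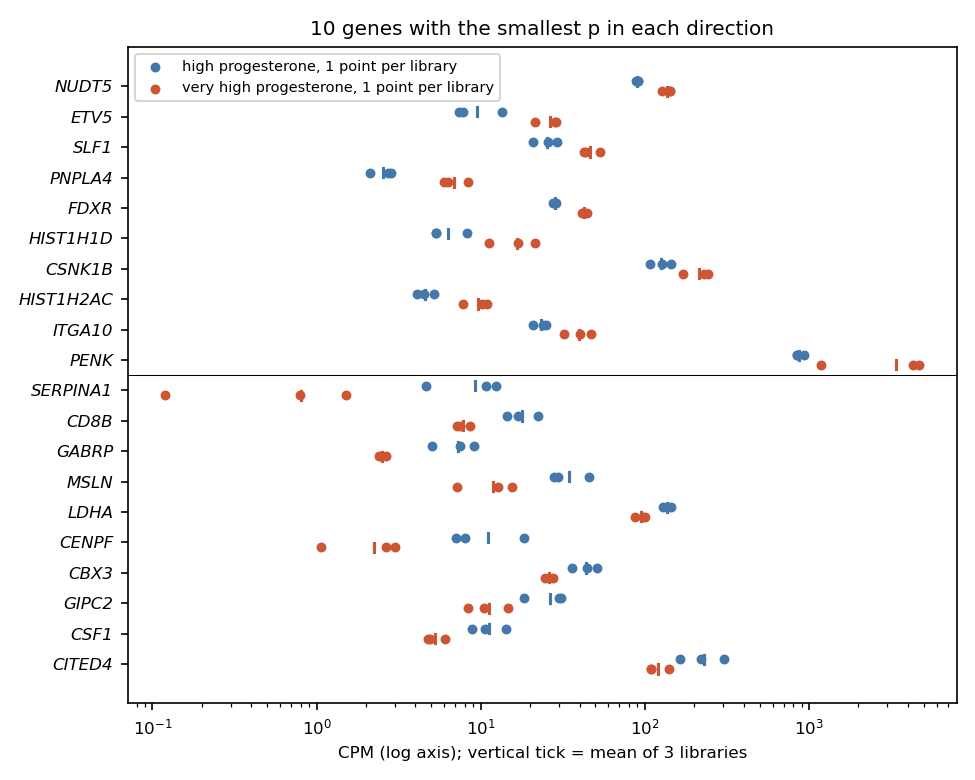
CPM (log axis) in each library for the 10 genes with the smallest unadjusted p in each direction, with ticks at the class means. The 3 very high libraries lie on 1 side of the 3 high libraries for each gene, and PENK in very high replicate 3 lies next to the high class.

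At the low end, SERPINA1, the secreted protease inhibitor alpha-1-antitrypsin, was at 4.65, 12.4 and 10.7 CPM in high and at 0.120, 0.797 and 1.51 CPM in very high libraries. The difference of -3.53 ± 0.65 (unadjusted p = 0.000891) rested on few reads in the very high class, and it ran from -2.99 to -4.33 over the libraries left out. GABRP, a subunit of the GABA-A receptor found in uterus, was at 9.16, 5.04 and 7.48 CPM against 2.64, 2.39 and 2.47 CPM (-1.52 ± 0.32). MSLN, the surface protein mesothelin, was at 45.9, 27.8 and 29.4 CPM against 12.8, 15.5 and 7.13 CPM (-1.53 ± 0.33). In the 12-library fit the estimate for high over low was -2.73 ± 0.90 for MSLN (unadjusted p = 0.0117) and -1.78 ± 0.93 for GABRP (unadjusted p = 0.0836). Of the other genes with the smallest p and a lower level, it was below 0 for LDHA (-0.69), CENPF (-0.58) and GIPC2 (-0.47). It was above 0 for SERPINA1 (1.42), CITED4 (0.84), CSF1 (0.59), CBX3 (0.47) and CD8B (0.25). The high and low classes also differed in muscle markers, and the part of these was not tested.

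CITED4, a transcriptional coactivator, was at 220, 305 and 163 CPM in high and 140, 108 and 109 CPM in very high libraries (-0.94 ± 0.24). CSF1, the growth factor of macrophages, was at 10.6, 8.85 and 14.3 CPM against 4.91, 4.78 and 6.03 CPM (-1.10 ± 0.27). CD68, a macrophage marker, was at 29.5, 23.0 and 29.2 CPM against 18.8, 15.5 and 11.1 CPM (-0.84 ± 0.24), with the classes apart. The macrophage and dendritic cell list as a whole did not separate the classes, with levels of 3.50 to 4.15 in high and 3.24 to 4.27 in very high libraries and 4 of its genes at 0 throughout. CD8B, a coreceptor chain of cytotoxic T cells, was at 16.9, 22.3 and 14.4 CPM against 7.19, 7.44 and 8.64 CPM (-1.20 ± 0.24). Its partner CD8A overlapped between the classes, at 23.1, 12.4 and 7.48 CPM against 10.8, 10.4 and 8.23 CPM. CBX3, a heterochromatin protein, and GIPC2, an adaptor protein, completed the group with the smallest p, besides LDHA and CENPF.

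Genes associated with estrogen lay mainly at lower levels in the very high class, without any passing the adjusted test. Of 16 tested, 8 (OXTR, GREB1, ESR1, LTF, TFF3, KRT7, FOS and MYC) were at an unadjusted p under 0.05 with a lower level, against 1.77% of all genes, and 0 with a higher one. The median was -0.69 and 14 of 16 estimates were below 0. LTF, OXTR, TFF3 and GREB1 did not overlap between the classes, which held for 3.94% of all genes in this direction. The count of 8 became 4 when either very high replicate 1 or 2 was left out, 5 when high replicate 1 was, and 2 in the 12-library fit. Epithelial marker levels were 6.34 to 6.84 in high and 6.15 to 6.47 in very high libraries, and with that level as a covariate the count was 6 and the estimate of OXTR was -1.20. Members of the list are also counted elsewhere. LTF is in the progesterone-associated and inflammation lists and FOS in the immediate early list. ESR1 is in the steroid receptor list, OXTR in the prostaglandin and oxytocin list and KRT7 among the epithelial markers.

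OXTR, the oxytocin receptor through which luteal regression is started late in the cycle, was at 39.7, 9.12 and 9.04 CPM in high and at 2.64, 4.78 and 6.99 CPM in very high libraries. The difference was -2.01 ± 0.68 (unadjusted p = 0.0205), and -0.91 without high replicate 1, in which it was highest. GREB1, a coregulator induced by estrogen through ESR1, was at 7.75, 29.0 and 17.9 CPM against 5.87, 3.59 and 7.41 CPM (-1.70 ± 0.50). TFF3, a mucosal secreted peptide, was at 45.9, 37.2 and 151 CPM against 26.1, 13.8 and 19.7 CPM (-1.97 ± 0.56), and -1.05 without high replicate 3. LTF, the iron-binding antimicrobial lactoferrin, was at 339, 346 and 1669 CPM against 190, 147 and 224 CPM (-2.07 ± 0.64), and -0.87 without high replicate 3. KRT7, an epithelial keratin, was at 63.0, 31.2 and 74.3 CPM against 35.1, 20.7 and 21.9 CPM (-1.11 ± 0.35). MYC, which drives growth, was at 64.4, 39.3 and 54.9 CPM against 30.8, 31.0 and 40.3 CPM (-0.64 ± 0.22), with 1 library overlapping. Of the list, 5 genes (31.25%, against 72.5% of all genes) were within 2-fold. Among them were PGR, the cyclin CCND1 (-0.38 ± 0.25) and the glucose transporter SLC2A1, whose estimate was 0.43.

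Cell cycle genes had low estimates as well, again without a gene past the adjusted threshold. Of 34 tested, 9 were at an unadjusted p under 0.05 with a lower level (against 1.77% of all genes), 0 with a higher one, 28 estimates were below 0 and the median was -0.47. For 12 the classes did not overlap in this direction, against 3.94% of all genes. The 9 were CENPF, TPX2, KIF20A, KIF11, BIRC5, CDC20, AURKB, DLGAP5 and CCNB1, which act in mitosis, at the spindle and kinetochore. CENPF was at 7.05, 8.03 and 18.4 CPM in high and at 2.64, 1.06 and 3.02 CPM in very high libraries (-2.30 ± 0.52, unadjusted p = 0.00285). BIRC5, which protects dividing cells, was at 4.65, 6.80 and 9.46 CPM against 3.36, 2.26 and 1.51 CPM (-1.53 ± 0.41), and TPX2, a spindle assembly factor, at 6.48, 8.17 and 12.0 CPM against 4.67, 3.59 and 2.88 CPM (-1.25 ± 0.34).

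Several genes of DNA replication in the same list were within 2-fold. MCM3, a subunit of the replicative helicase, was at 32.1, 22.3 and 29.7 CPM in high and 34.0, 27.8 and 24.1 CPM in very high libraries (0.03 ± 0.21), and MCM4, MCM5, MCM6, MCM7, RRM1, TYMS and PCNA were within 2-fold too. These were singled out after their values were seen. High replicate 3 had the highest level of most of the mitotic genes named here, and the count of 9 was 5 without it, 4 without very high replicate 2 and 4 in the 12-library fit. CCNB1, 1 of the 9 and the most abundant tested gene of the list, had its highest value, 372 CPM, in high replicate 2. Its lowest value in the high class, 122 CPM, was in high replicate 3.

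Immediate early and heat shock genes had 25 of 26 estimates below 0 and a median of -0.56, with 6 at an unadjusted p under 0.05 and a lower level, against 1.77% of all genes. This count was 1 when high replicate 1 or very high replicate 2 or 3 was left out, 2 for very high replicate 1 and 14 for high replicate 2. It was 0 in the 12-library fit, 1 in limma-voom and with the epithelial level as a covariate, and 11 with the smooth muscle covariate. The list level was 7.90 in high replicate 1, 5.78 and 6.42 in the other high libraries and 5.79 to 6.21 in the very high ones. FOS, a subunit of the AP-1 transcription factor, was at 833, 6.94 and 28.8 CPM in high and at 29.5, 12.9 and 10.1 CPM in very high libraries. Its estimate of -4.04 ± 1.60 was -0.01 without high replicate 1. EGR1, a zinc finger transcription factor of the same response, was at 376, 9.25 and 22.6 CPM against 8.39, 8.90 and 6.58 CPM. Its estimate of -4.09 was -0.98 without that library, and the classes still did not overlap.

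Several inflammation and antimicrobial genes had 1 high library far above the rest. Of 36 tested, 4 (CXCL8, IL1RN, SOCS3 and LTF) were at an unadjusted p under 0.05 with a lower level, against 1.77% of all genes, and 7 (19.4%, against 72.5%) were within 2-fold. The count was 1 in limma-voom and in the 12-library fit and 7 in DESeq2. High replicate 3 held the highest values of CXCL8, IL1RN and LTF. CXCL8, the neutrophil chemokine, was at 3.66, 1.09 and 65.4 CPM in high and at 2.52, 0.266 and 0.549 CPM in very high libraries, and IL1RN, the interleukin 1 receptor antagonist, at 11.3, 5.85 and 115 CPM against 11.7, 3.72 and 4.94 CPM. Without that library the list's count was 1 and the estimate of CXCL8 was -1.02 in place of -4.32. The count was also 1 when very high replicate 2 or 3 was left out, and 7 for very high replicate 1 or high replicate 2. The neutrophil marker level was 4.52 in that library, 3.01 and 3.48 in the other high ones and 3.13 to 4.26 in the very high ones, with 2 of its markers at 0 throughout. Its part in the result was not tested. NTS, the precursor of neurotensin, and the fructose transporter gene SLC2A5 were also highest in high replicate 3. SLC2A5 was at 3.38, 5.72 and 29.4 CPM in high and at 0.719, 0 and 1.10 CPM in very high libraries, apart in every pair (-4.37 ± 1.11, and -2.87 without that library).

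Interferon-stimulated genes, the antiviral genes that the embryo's interferon tau raises later in pregnancy, had mostly positive estimates with list levels that overlapped (4.46 to 5.35 in high, 4.71 to 5.82 in very high libraries). Of 24 tested, 23 estimates were above 0, the median was 0.51, and 3 (HERC5, PARP9 and PARP12) were at an unadjusted p under 0.05 with a higher level, against 1.72% of all genes. PARP9 was at 41.0, 34.8 and 43.1 CPM in high and at 66.3, 59.1 and 47.2 CPM in very high libraries (0.54 ± 0.17, within 2-fold), and PARP12 at 73.0, 61.1 and 64.7 CPM against 91.4, 111 and 74.6 CPM (0.48 ± 0.17, within 2-fold). PARP9 overlaps the tested gene DTX3L in the annotation, and reads of the pair may not have been separated. Some other members of the list varied more. MX1, an antiviral GTPase, was at 63.4, 25.6 and 66.8 CPM against 95.3, 205 and 59.0 CPM (1.21 ± 0.52), and IFI27 at 58.3, 31.6 and 95.7 CPM against 188, 291 and 25.8 CPM (1.44 ± 0.78). In very high replicate 3 MX1 lay among the high libraries and IFI27 below them. Without very high replicate 2 the estimates were 0.58 for MX1 and 0.80 for IFI27. The list's count of 3 was 9 without very high replicate 3, and 1 when very high replicate 1 or 2 or high replicate 2 or 3 was left out. It was 0 in the 12-library fit and 7 with the epithelial level as a covariate.

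The levels of most cell type marker lists overlapped between the classes. The exceptions were 4 gland genes (5.49 to 5.65 in high, 5.66 to 5.90 in very high libraries) and 2 genes of blood cells (1.27 to 1.92 and 1.92 to 2.30), both by narrow margins. The levels were 8.23 to 8.55 in high and 8.06 to 8.76 in very high libraries for stromal fibroblasts, and 4.74 to 5.25 and 4.24 to 5.11 for endothelium. Endothelial estimates were below 0 for 13 of 14 genes, against 5489 of all 10534, with 0 at an unadjusted p under 0.05. The lowest endothelial level, 4.24, was that of very high replicate 3. The T and NK cell level was 2.41 to 3.76 in high and 2.46 to 3.26 in very high libraries, and that of B and plasma cells 3.00 to 5.37 and 4.43 to 5.56. MS4A1, the B cell surface protein CD20, had the largest estimate towards a higher level of any tested gene, 3.04 ± 1.40, on values of 11.3, 1.22 and 0.282 CPM in high and 1.68, 19.4 and 84.3 CPM in very high libraries. These overlapped, and the estimate was 1.29 without very high replicate 3 and 5.51 without high replicate 1.

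**Figure D5:**
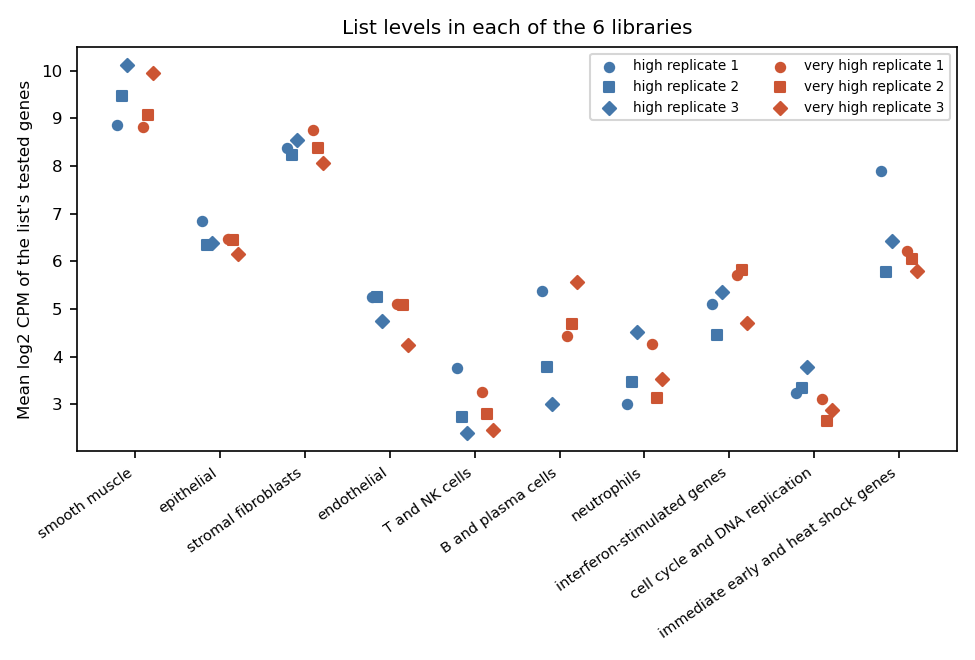
Mean log2 CPM of the tested genes of 10 lists in each of the 6 libraries (blue: high, orange: very high; the marker shape gives the replicate number, which is only a name). The classes overlap for every list shown except the cell cycle list, and high replicate 1 stands apart for immediate early genes.

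For the remaining pathways, higher and lower count the genes at an unadjusted p under 0.05, which were 1.72% and 1.77% of all tested genes. Intervals lay within 2-fold for 72.5% of all tested genes. Of 9 tested neuropeptide and granule genes, 2 (PENK and CHGA) were higher, 1 (NTS) was lower and 4 were within 2-fold. In the extracellular matrix list there were 0 of 34 higher and 2 lower, and 17 were within 2-fold. POSTN, a matrix protein made by fibroblasts, was at 104, 72.5 and 122 CPM in high and at 19.3, 23.8 and 56.0 CPM in very high libraries, without overlap (-1.59 ± 0.41, unadjusted p = 0.00573). TNC, tenascin C, was within 2-fold (-0.48 ± 0.19). The growth factor axis of 30 genes had 2 higher (IGFBP2 and BMP4) and 2 lower (IGFBP3 and IGFBP5), with 13 within 2-fold. IGFBP3 was at 68.8, 37.3 and 136 CPM in high and at 29.4, 40.8 and 28.9 CPM in very high libraries (-1.29 ± 0.44), and -0.68 without high replicate 3. Of 22 WNT, HOX and uterine transcription factor genes, 1 (SFRP1) was higher and 3 (HOXD10, HOXD11 and MSX1) were lower, with 8 within 2-fold. HOXD10 and HOXD11 overlap in the annotation and may share reads. MSX1, a homeobox factor of the uterine epithelium, was at 743, 917 and 529 CPM against 533, 516 and 487 CPM (-0.51 ± 0.21).

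Of 24 sterol and fatty acid synthesis genes, 0 were at an unadjusted p under 0.05 in either direction and 10 were within 2-fold. Of 20 genes of fatty acid uptake and storage, 2 (DGAT2 and MGLL) were higher, and 12 were within 2-fold. MGLL, which releases fatty acids from monoglycerides, was at 78.1, 74.0 and 71.0 CPM against 91.8, 102 and 105 CPM, apart and within 2-fold (0.42 ± 0.12). Of 21 glucose and amino acid transporters, 1 (SLC1A1) was higher and 2 (SLC2A5 and SLC38A2) were lower. SLC1A1, a glutamate transporter, was at 256, 207 and 113 CPM against 287, 575 and 272 CPM, apart (0.98 ± 0.38), and it overlaps the tested gene SPATA6L. SLC38A2, a carrier of neutral amino acids, was within 2-fold (-0.47 ± 0.16).

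Neither the circadian clock (14 genes, 9 within 2-fold) nor the cAMP and protein kinase A genes (23 genes, 14 within 2-fold) had a member at an unadjusted p under 0.05. PER1, a clock repressor, was at 210, 248 and 169 CPM in high and at 179, 203 and 192 CPM in very high libraries. PRKACA, the catalytic subunit of protein kinase A, was at 64.7, 78.8 and 76.4 CPM against 64.6, 72.0 and 63.6 CPM (-0.13 ± 0.13). Of 20 antigen processing and MHC genes, 1 (BOLA-DOB) was higher and 10 were within 2-fold. BOLA-DOB, a class II chain of B cells, was highest in very high replicate 3, at 14.7 CPM against 0.953 to 6.95 CPM in the other 5 libraries, as MS4A1 was.

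Some genes varied widely within a class. CADM3, a cell adhesion protein, was at 63.5, 19.0 and 2.61 CPM in the very high libraries and at 6.53 to 12.0 CPM in the high ones. It overlaps the tested gene ACKR1 in the annotation and may share reads with it. GP2, a glycoprotein of secretory epithelia, was at 3.24, 19.6 and 127 CPM in high libraries. Of the smooth muscle genes, 1 of 13 was within 2-fold. ACTA2, smooth muscle actin, was at 4753, 8649 and 11710 CPM in high and 4530, 5081 and 9363 CPM in very high libraries, so that its estimate of -0.40 had an interval of -1.54 to 0.73. A 2-fold lower level lay inside that interval, so a difference of that size was not excluded with 3 samples a class.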

How the data were processed

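Endometrial biopsies were sequenced after Trizol extraction, DNase treatment and oligo-dT capture, with stranded TruSeq libraries in 1 equimolar pool of 12, per the labels' protocols. FastQC 0.11.2, Trimmomatic 0.32, UMD3.1 and bosTau8 are the tools and builds in the submitters' processing notes. Which aligner, counter, strand setting and annotation were used is not given in the sources used here, so reads of overlapping genes may not be separated. The authors deposited whole-number counts per gene symbol, neither scaled nor pooled, in 1 column per sample. Totals of the 6 libraries ran from 6952815 to 8379489, and counting error is largest for low genes.

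The 3 very high and 3 high libraries were tested alone with edgeR 4.0.16 in R 4.3.3 (quasi-likelihood test, TMM factors 0.947 to 1.02, 4 residual degrees of freedom). filterByExpr with a count minimum of 10 kept 10534 of 13930 symbols, and 1582 had 0 counts in all 6. The Benjamini-Hochberg adjustment ran over all 10534 genes, with a threshold of 0.05. Fold changes are log2 values of very high over high with their SE. The 95% interval is the estimate with the t quantile at the model's total degrees of freedom, and a gene counts as within 2-fold when the interval lies wholly between -1 and 1. CPM are scaled by TMM over the 6 libraries, and list levels are mean log2 CPM with a prior count of 2. Group medians and counts describe the tested members. limma 3.58.1 (voom), DESeq2 1.42.0, other scalings and filters, covariates, a replicate block and each library left out were alternatives. The fits were tested on simulated data.

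The comparison, the 37 gene lists (22 pathways, 15 marker lists) and the rule were chosen with earlier results of these data known. The rule names PGR, ESR1, OXTR and FKBP5; with fewer than 10 genes called, the 10 smallest p in each direction at a mean log2 CPM of 1 or more; the 2 most abundant genes and the smallest p of each list; the closest-bounded genes; and those with the largest spread within a class. It named 155 genes, of which the text describes a part. Other genes described were chosen after their values were seen, from the lists' members at an unadjusted p under 0.05 or for their role. The RefSeq gene table of ARS-UCD2.0 holds 10217 of the tested symbols as names and 287 as synonyms, and lacks 30. It served for names and overlaps only, and 11 of the 155 genes overlap another tested gene. Promoter and protein sequences were not used here.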

Additional observations from a re-analysis of the deposited data

How the results depend on the processing

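The count of 0 genes called at an adjusted p of 0.05 held in edgeR under every scaling, filter, covariate and library left out (0 to 0 over the libraries left out) and in limma-voom, and DESeq2 called 5. The count within 2-fold was 7640 and ran from 6908 to 7085 over the libraries left out, was 5772 with all 12 libraries and between 7317 and 7810 in the other fits, while the stricter bound of 1.5-fold, chosen after seeing the data, held 4318. The same count for high against low in the 12-library fit, also added after seeing the data, was 4806. The number at an unadjusted p under 0.05, 367, became 99 with all 12 libraries and 776 with the epithelial level as a covariate, and the causes were not tested. Of 106 genes named, 37 were within 2-fold, a bound without direction, and the sign of 19 of these changed in some alternative. Of the other 69, 66 kept their direction in all 19 alternatives. PTGS2 became 0.55 in limma-voom, 0.37 with the replicate block and 0.17 with the epithelial covariate, and ran from -0.59 to 0.67 over the libraries left out. CREB3L2 ran from -0.46 to 0.068 and EGLN3 from -0.53 to 0.53 over them, and the cause was not tested. Named genes within 2-fold lost that place in 59 cases, 20 of them with all 12 libraries. With the replicate number as a block, 0 genes were called, 368 were at an unadjusted p under 0.05 and 7622 were within 2-fold, and the immediate early list held 2 genes at that p with a lower level in place of 6. The deviations of same-numbered libraries correlated at 0.08, -0.09 and -0.01, and no library correlated best with its own number, so the numbers were taken as names and the main test has no pairing. With 3 libraries a class the median half-width of the intervals was 0.50 log2 units, and the precision was lowest for genes with few counts.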
